A study of Mus musculus with 2 samples.

Results

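Vesicle trafficking genes were chosen by symbol as the protein-coding genes of the Rab, Arl, Arf, Cop, Snx, Vps, Ap, Sec, Stx and Vamp families, and 255 of 21900 protein-coding genes met the rule. The rule also takes in 11 genes whose products are not vesicle trafficking proteins, mainly of the translocon (Sec61a1, Sec61a2, Sec61b, Sec61g, Sec62 and Sec63) and signal peptidase (Sec11a and Sec11c), with Arl6ip4, Sec1 and Vps72. Each gene was asked whether a summit of histone H3 β-hydroxybutyrylated at lysine 9 (H3K9bhb) lay inside it or within 5 kb. The data were 1 ChIP-seq peak list with 2204 peaks and 2315 summits, from interleukin-15-cultured CD8+ memory T cells that had been given β-hydroxybutyrate (BHB) for 3 days. The cells came from spleens of OT-I mice on the C57BL/6 strain. They had first been activated for 3 days, with 200 ng/ml of OVA257–264 peptide and 10 ng/ml of interleukin-2, and then kept for 4 days in interleukin-15 (10 ng/ml). OT-I mice carry a transgenic T cell receptor for that peptide. The labels give 70 M reads per library. An input DNA library from the same kind of cells was made, but no processed values of it were used here. With 1 ChIP library and no untreated culture, a peak is a place called in treated cells, there is no replicate error, and no test between conditions was possible. Intervals are exact 95% binomial intervals (Clopper-Pearson) and cover counting error only.

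H3K9bhb is a histone mark made from the ketone body BHB. Vesicle traffic moves proteins between the endoplasmic reticulum (ER), Golgi, endosomes, lysosomes and the cell surface. Small GTPases of the Rab, Arf and Arl families mark membranes and recruit coats. COPII, COPI and the adaptor (AP) complexes select cargo and bend the membrane, sorting nexins and Vps complexes direct cargo through endosomes, and SNARE proteins such as syntaxins and Vamp proteins drive fusion. Cytotoxic CD8+ T cells use this machinery to recycle receptors and to release lytic granules.

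Of the 255 vesicle trafficking genes, 39 (15.3%, 95% interval 11.1 to 20.3) had a peak, against 2450 of 21645 other genes (11.3%, 10.9 to 11.7). Over all protein-coding genes the share was 11.4%, which lies inside the interval of the trafficking genes. Without the 11 genes named above, of which Sec61a2 and Sec63 had a peak, it was 37 of 244 (15.2%, 10.9 to 20.3). No member had more than 1 peak (0 of 39), and Snx2 alone had several summits in its peak. In RefSeq, Vamp7 has a position number under 3 Mb on X, and 108 protein-coding genes in all have one under 3 Mb on X or an autosome. These were taken as positions counted along scaffolds, not along the chromosome, so chromosome summits could not be matched to them. No summit (0) had a position under 3 Mb there. Vamp7 could therefore not be scored and is counted as having no peak. Without the 108 genes the share was 39 of 254 (15.4%, 11.2 to 20.4). The 215 other members without a peak had their nearest summit a median of 187 kb away (quartiles 58.5 and 450.0 kb).

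Most of the peaks lay at a transcription start. A start was listed in RefSeq (GRCm38.p6, the assembly of mm10) for 204 members and for 17492 protein-coding genes in all. Of the 204, 30 (14.7%, 10.1 to 20.3) had a summit within 1 kb of a listed start, against 1576 of 17288 other genes (9.12%, 8.69 to 9.56). Over all genes with a listed start the share was 9.18%, which lies below the interval of the members. Within each class of promoter CpG count, given below, the share of other genes lay within the members' interval. In the top 50% of peaks by score the interval of the members (7.84%, 4.55 to 12.4) held the share of other genes (4.67%). The members' intervals treat genes as independent, and the difference was not tested. All 30 summits were also within 500 bp of the start.

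Promoter sequence is shown for the highest-scoring member of each family with a summit within 500 bp of a listed start, because these are the places where the mark was called. Each window runs from 250 bases before to 50 bases after the start, 5′ to 3′ along the gene, as given by RefSeq for GRCm38.p6. Capitals mark matches, on either strand, to CCAAT (a box bound by NF-Y), to the GC box GGGCGG, to the ETS core GGAAGT, and to GCATGCGC (part of the NRF1 site), TGACGTCA (CRE) or TCACGTGA (the CLEAR element of lysosomal genes). In the first set of 4 the summit itself fell inside the window, between 53 bases and 16 bases before the start.
Arf1, chr11:59228218-59228517, minus strand: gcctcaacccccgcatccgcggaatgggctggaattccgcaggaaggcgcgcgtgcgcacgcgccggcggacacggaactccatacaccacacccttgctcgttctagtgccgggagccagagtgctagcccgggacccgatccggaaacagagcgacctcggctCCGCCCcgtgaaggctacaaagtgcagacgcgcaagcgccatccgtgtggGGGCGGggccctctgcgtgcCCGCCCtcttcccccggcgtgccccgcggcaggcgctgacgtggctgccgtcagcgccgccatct
Arl5b, chr2:15055070-15055369, plus strand: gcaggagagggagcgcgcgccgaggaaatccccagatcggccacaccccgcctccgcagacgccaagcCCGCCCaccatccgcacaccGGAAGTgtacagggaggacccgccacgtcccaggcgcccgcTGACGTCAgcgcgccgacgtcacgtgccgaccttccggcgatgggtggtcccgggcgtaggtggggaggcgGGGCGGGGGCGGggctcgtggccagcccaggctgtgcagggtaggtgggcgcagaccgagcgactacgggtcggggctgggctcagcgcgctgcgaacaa
Sec24d, chr3:123267246-123267545, plus strand: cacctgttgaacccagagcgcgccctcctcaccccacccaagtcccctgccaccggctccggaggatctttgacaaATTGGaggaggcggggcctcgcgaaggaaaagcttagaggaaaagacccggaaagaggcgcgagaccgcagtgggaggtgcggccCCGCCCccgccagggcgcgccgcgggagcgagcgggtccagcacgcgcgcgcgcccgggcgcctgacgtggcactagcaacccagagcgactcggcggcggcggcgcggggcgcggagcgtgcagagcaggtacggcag
Snx8, chr5:140389259-140389558, minus strand: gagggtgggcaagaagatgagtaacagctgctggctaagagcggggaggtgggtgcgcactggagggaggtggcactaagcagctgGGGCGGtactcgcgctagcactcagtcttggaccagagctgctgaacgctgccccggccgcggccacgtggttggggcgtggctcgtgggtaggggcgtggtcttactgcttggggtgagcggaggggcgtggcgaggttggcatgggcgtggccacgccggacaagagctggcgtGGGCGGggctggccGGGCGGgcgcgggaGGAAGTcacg

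In the other set of 5 the summit lay beyond the window, between 153 and 218 bp after the start.
Rab23, chr1:33719646-33719945, plus strand: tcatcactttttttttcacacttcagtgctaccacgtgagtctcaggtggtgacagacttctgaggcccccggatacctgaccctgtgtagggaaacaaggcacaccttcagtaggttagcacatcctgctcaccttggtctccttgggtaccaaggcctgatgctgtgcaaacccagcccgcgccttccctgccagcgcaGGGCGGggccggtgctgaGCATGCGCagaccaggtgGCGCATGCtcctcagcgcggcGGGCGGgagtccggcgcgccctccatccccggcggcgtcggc
Copb1, chr7:114254631-114254930, minus strand: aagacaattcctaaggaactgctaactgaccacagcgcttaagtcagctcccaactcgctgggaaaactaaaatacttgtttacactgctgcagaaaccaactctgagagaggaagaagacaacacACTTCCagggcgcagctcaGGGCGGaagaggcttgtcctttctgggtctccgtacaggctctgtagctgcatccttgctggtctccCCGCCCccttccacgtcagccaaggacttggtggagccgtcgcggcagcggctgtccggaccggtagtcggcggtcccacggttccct
Vps13d, chr4:145194956-145195255, minus strand: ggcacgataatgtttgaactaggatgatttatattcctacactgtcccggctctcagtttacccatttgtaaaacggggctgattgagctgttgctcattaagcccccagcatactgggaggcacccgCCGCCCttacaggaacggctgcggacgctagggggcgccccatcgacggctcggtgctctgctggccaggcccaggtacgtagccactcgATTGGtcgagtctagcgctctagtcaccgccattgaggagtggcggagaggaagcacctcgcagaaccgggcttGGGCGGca
Ap1g1, chr8:109778333-109778632, plus strand: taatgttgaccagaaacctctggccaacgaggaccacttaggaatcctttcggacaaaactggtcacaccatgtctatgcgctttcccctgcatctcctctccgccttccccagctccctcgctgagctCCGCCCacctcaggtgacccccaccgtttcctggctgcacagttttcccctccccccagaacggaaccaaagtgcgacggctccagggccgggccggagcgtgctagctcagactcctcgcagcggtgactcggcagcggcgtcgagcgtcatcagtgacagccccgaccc
Stx17, chr4:48124669-48124968, plus strand: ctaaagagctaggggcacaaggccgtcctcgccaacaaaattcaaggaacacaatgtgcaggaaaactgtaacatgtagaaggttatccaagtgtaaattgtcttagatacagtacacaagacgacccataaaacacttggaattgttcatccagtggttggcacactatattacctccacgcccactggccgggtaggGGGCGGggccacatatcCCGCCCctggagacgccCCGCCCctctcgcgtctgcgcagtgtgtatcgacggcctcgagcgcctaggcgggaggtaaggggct

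All 9 windows held at least 1 GC box. Copb1 and Stx17 held the fewest CpG of the 9, with 16 and 17 in the 300 bases, and Sec24d, Arl5b and Arf1 held the most, with 39, 38 and 38. Rab23 held an NRF1 match on each strand, Arl5b held the CRE match, and Vps13d and Sec24d held a CCAAT match each.

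**Figure D1:**
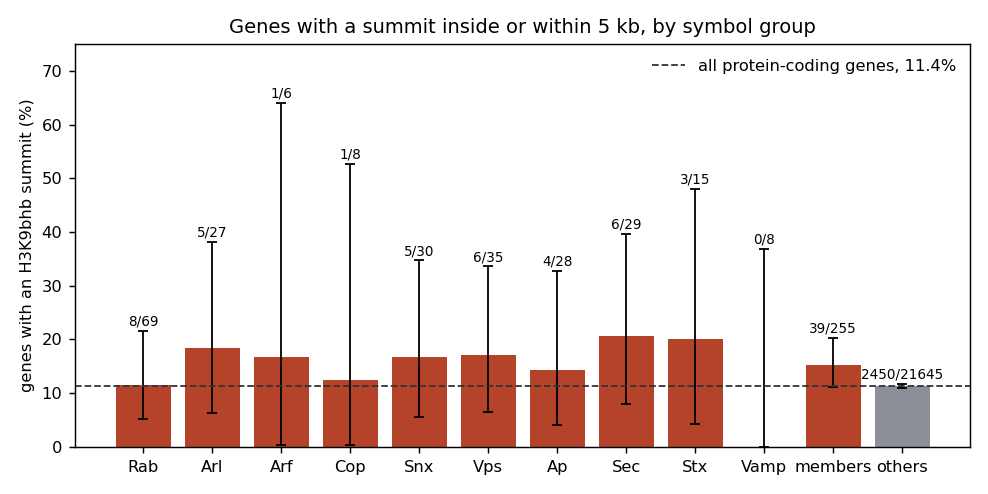
Percentage of genes with an H3K9bhb summit inside them or within 5 kb, for each symbol family, for all members and for the other protein-coding genes (bars), with exact 95% binomial intervals (lines) and counts above them. The dashed line is the share over all protein-coding genes, 11.4%. It lies within the interval of every family, and Vamp (0 of 8) has no bar.

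The symbol families did not separate from one another at this number of genes. Sec genes had the highest share, 6 of 29 (20.7%, 7.99 to 39.7), followed by syntaxins with 3 of 15 (20%, 4.33 to 48.1), Arl with 5 of 27 (18.5%, 6.30 to 38.1) and Vps with 6 of 35 (17.1%, 6.56 to 33.6). Sorting nexins had 5 of 30 (16.7%, 5.64 to 34.7), Arf 1 of 6 (16.7%, 0.421 to 64.1), adaptor subunits 4 of 28 (14.3%, 4.03 to 32.7) and Cop 1 of 8 (12.5%, 0.316 to 52.7). Rab genes, the largest family, had 8 of 69 (11.6%, 5.14 to 21.6). No Vamp gene had one (0 of 8); a count of 0 allows a share of up to 37.5% if 3 counts are taken as the limit, or 36.9% by the exact interval (41.0% for 0 of 7 without Vamp7). All 10 intervals overlapped and all held the 11.4% found over all protein-coding genes. The intervals of the smaller groups of members by complex or role, given below, held it too. The lists of partners outside the rule are not among these groups.

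Scores, the peak caller's −log10 p or q at the summit, were like those of other genes. The 39 members had a median top score of 5.04 (quartiles 3.42 and 6.78, range 2.1 to 16.3), against 5.04 (3.33 and 6.78) for the 2450 other genes with a peak. Over 10 scored 4 members (10.3%), against 191 other genes (7.80%). The 4 were Copb1 (16.3), Snx8 (16.2), Ap1g1 (10.5) and Vps13d (10.5). The score of Copb1 was reached by 1.13% of all 2204 peaks, and that of Ap1g1 by 6.03%. The lowest score of any peak was 2.01, and some members lay near it. Rab2b (2.1) was reached by 96.8% of peaks, Arl3 and Rab35 (2.12) by 96.6% and Rab43 (2.49) by 92.2%.

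**Figure D2:**
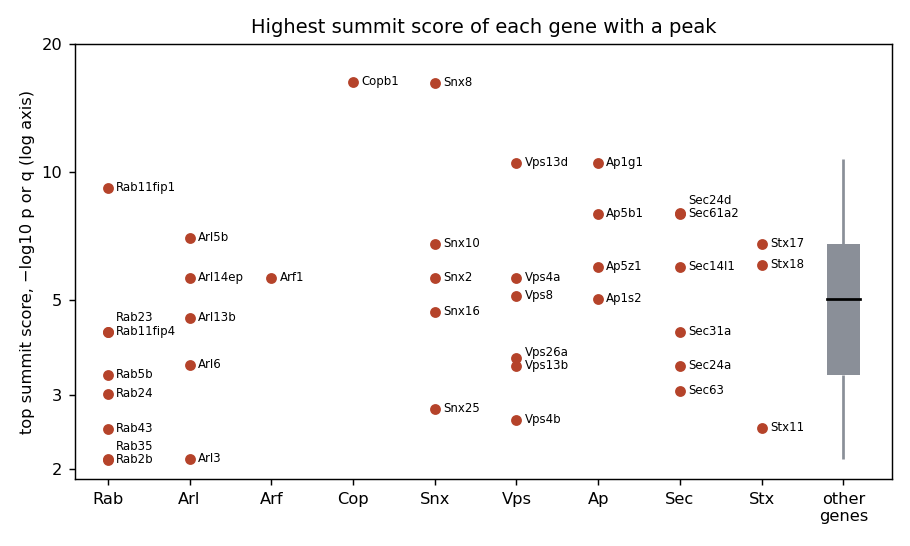
Highest summit score (−log10 p or q as deposited, log axis) of each of the 39 vesicle trafficking genes with a peak (red points, by family) and of the other genes with a peak (grey box from the lower to the upper quartile, black line at the median, grey lines from the 5th to the 95th percentile). Copb1 (16.3) and Snx8 (16.2) are highest, and the points of the Rab family lie at 4.22 or below except Rab11fip1 (9.18).

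The Rab GTPases with a peak all had scores below the median of all peaks, 5.04. Among 59 GTPases, 6 had a peak (10.2%, 3.82 to 20.8), with scores from 2.1 to 4.22. In the top 50% of peaks by score, 1 of 69 Rab genes had a peak (1.45%, 0.0367 to 7.81), Rab11fip1 alone. That interval holds the 5.74% of all genes outside the rule, so the shares were not separated. Rab23, a regulator of Hedgehog signalling at the cilium, scored 4.22 with a summit 218 bp after its start. Rab24, which is linked to autophagy, scored 3.01 at 188 bp after its start, and 263 bp upstream of the start of Prelid1 on the other strand. Rab43, of the ER and Golgi, scored 2.49 at 255 bp after a listed start. Rab35, of endocytic recycling, scored 2.12 with a summit 305 bp upstream of its start, which was also 134 bp after the start of the lncRNA gene 1110006O24Rik on the opposite strand. The early endosome GTPase Rab5b (3.34) and the Golgi GTPase Rab2b (2.1) were counted through their flanks: the summits lay 3069 and 4220 bp beyond their transcript ends. They were 183 bp upstream of the start of Suox and 221 bp after that of Chd8. Neither paralogue of Rab5b had a peak, the nearest summit being 2530 kb from Rab5a and 301 kb from Rab5c.

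Of 10 Rab-named regulators and effectors, 2 had a peak (20%, 2.52 to 55.6). Both bind Rab11, the GTPase of recycling endosomes. Rab11fip1 scored 9.18, the highest score of the Rab family, 233 bp inside one end of the gene. Rab11fip4 scored 4.22 with a summit 37415 bp inside the gene, the farthest from an own end of any member. No start was listed for either. Rab11a and Rab11b themselves had no peak, with the nearest summit 73.8 and 23.9 kb away.

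Among the Arl GTPases, 4 of 20 had a peak (20%, 5.73 to 43.7, an interval that holds the 11.4% of all genes). Arl13b, a ciliary membrane GTPase and activator of Arl3, scored 4.54 with a summit 137 bp after its start. Arl6, which recruits the BBSome coat, scored 3.52 with a summit 17 bp upstream. Arl3, which unloads lipid-modified cargo in the cilium, scored 2.12. Its summit lay 75 bp upstream of Arl3 and 108 bp upstream of Sfxn2 on the other strand, so it was slightly nearer to the annotated end of Sfxn2 (68 bp) than to that of Arl3 (75 bp). Arl5b, a GTPase of the trans-Golgi, scored 7.01, the highest of the family, with a summit 53 bp upstream of the start shown above. Arl14ep, an effector of ARL14 in human cells, was the 1 of 7 Arl-named partners with a peak (5.63, 32 bp after the start).

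The GTPase that recruits coats to the Golgi, Arf1, was the 1 of 6 Arf genes with a peak (5.63, 16 bp upstream). In the COPI coat, which Arf1 recruits, only Copb1 of the 8 genes matched by symbol had a peak. Copb1 encodes β-COP, and its summit lay 204 bp after the start. Of its partners, Copz1 had a summit 5.66 kb away, just outside the limit. The nearest summit was 19.4 kb from Cope, 60.6 kb from Copz2 and 76.3 kb from Copg1, and it was 320, 367 and 441 kb from Copg2, Copb2 and Copa.

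In the COPII coat, which carries cargo out of the ER, 3 of 12 genes had a peak (25%, 5.49 to 57.2, an interval that holds the 11.4% of all genes). Sec24d and Sec24a encode cargo-binding subunits. Sec24d scored 8.0; its summit was 2672 bp inside the annotated gene but 23 bp upstream of the listed start. Sec24a scored 3.50 at 371 bp after its start. Their paralogues Sec24b and Sec24c had no summit within 98 kb (449 and 98.7 kb). Sec31a, of the outer cage, scored 4.22 at 96 bp after a listed start, while Sec31b was 5.06 kb from its nearest summit. The inner-coat genes Sec23a and Sec23b had none within 100 kb (120 and 187 kb).

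Among 8 genes of ER translocation and signal peptidase, which act before vesicles form, 2 had a peak (25%, 3.19 to 65.1). Sec61a2, a paralogue of the translocon pore, scored 7.95 at 196 bp after its start. Sec61a1 was 692 kb from a summit. Sec63, a partner of the translocon, scored 3.06 at 137 bp after its start. Sec14l1, a Sec14-like lipid-binding protein, was the 1 of 5 such genes with a peak (5.98, 317 bp after a listed start). The 3 Sec22 genes had none.

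Of the adaptor complexes, AP-1 had 2 of 8 genes with a peak and AP-5 had 2 of 4, while AP-2 (0 of 5), AP-3 (0 of 7) and AP-4 (0 of 4) had none. The exact upper limits of the last are 52.2%, 41.0% and 60.2%, so the complexes were not separated. Ap1g1, the γ subunit of the AP-1 adaptor of the trans-Golgi and endosomes, scored 10.5 at 181 bp after its start. Ap1s2, a small subunit of AP-1, scored 5.04 at 113 bp upstream of its listed start. It was the 1 with a peak of the 7 members on the X chromosome that could be scored (14.3%, 0.361 to 57.9), where 17 of 956 other X genes had one (1.78%, 1.04 to 2.83). Ap5z1, the ζ subunit of the late endosomal AP-5, scored 5.98 at 229 bp after its start. The summit counted for Ap5b1 (7.95) lay inside its annotated span but 6947 bp upstream of its listed start, and was nearer to an end of Ovol1 (502 bp).

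The sorting nexins with a peak were Snx8, Snx10, Snx2, Snx16 and Snx25. Snx8, a nexin of endosome-to-Golgi transport, had the highest score of the family (16.2), 20 bp upstream of its start. Snx10, an endosomal nexin, scored 6.78 at 34 bp upstream of a listed start. Snx2, which works with retromer, had a summit of 5.63 just outside the gene (33 bp) and another of 4.22 inside it (351 bp from the same end). Snx16, an endosomal nexin, scored 4.70 at 371 bp inside one end, and Snx25 scored 2.77 at 119 bp upstream of a listed start.

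Among the Vps genes, both paralogues of the Vps4 ATPase, which takes ESCRT-III apart, had a peak: Vps4a scored 5.63 at 81 bp and Vps4b 2.62 at 374 bp after the start. The 7 other ESCRT genes matched by symbol had none, with Vps36 at 7.23 kb from a summit. Vps13d (10.5, 161 bp after a listed start) and Vps13b (3.50, 552 bp inside one end) encode lipid-transfer proteins that bridge organelles. Vps13a and Vps13c were 483 and 796 kb from a summit. In retromer, the complex that returns cargo from endosomes, Vps26a had a peak (3.66, 80 bp after a listed start), and Vps35 and Vps29 were 188 and 343 kb from one. Vps8, the subunit that defines the CORVET tether of early endosomes, had a peak (5.11, 245 bp after the start). The other 6 genes of HOPS and CORVET had none, and neither did the 5 genes of GARP and EARP or the 2 of retriever.

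Among SNARE genes, 3 of 15 syntaxins and none (0) of 8 Vamp genes had a peak. Stx17, the syntaxin of autophagosome fusion with lysosomes, scored 6.78 at 153 bp after its start. Stx11, which cytotoxic lymphocytes need to release lytic granules, scored 2.51 at 58 bp after its start, a score that 90.7% of all peaks reached. Stx18, of the ER, had a summit (6.06) 188 bp beyond its transcript end and 98728 bp from its listed start, and 765 bp from an end of Nsg1. Vamp8, which takes part in granule fusion, was 37.6 kb from a summit, and the granule GTPase Rab27a was 59.1 kb away. Vamp7 could not be scored.

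The members just inside and just outside the 5 kb limit were few. Rab5b (3069 bp) and Rab2b (4220 bp) were the farthest that counted. Beyond the limit lay Sec31b (5063 bp), Rab25 (5522 bp) and Copz1 (5657 bp), and 6 members in all had their nearest summit between 5 and 10 kb away.

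Position along the gene could be read with strand for 34 of the 39 members with a peak. In 30 of these 34 (88.2%, 72.5 to 96.7) the top summit lay within 1 kb of a listed start, and the exceptions were Ap5b1, Rab2b, Rab5b and Stx18. Another count took members with a listed start and a summit within 2 kb of an own annotated gene end. In 30 of 31 (96.8%, 83.3 to 99.9) the summit was nearer to the annotated end on the side where transcription starts. The same held for 1540 of 1659 other genes (92.8%, 91.5 to 94.0). The exception among members was Stx18. An annotated end need not be a listed start. Ap5b1 is among the 30, although its summit lay 6947 bp upstream of its listed start. Sec24d was left out, because its summit was 2672 bp from an annotated end.

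Within 1 kb of the start, the median summit of the 30 members was 116 bp downstream (quartiles −19.2 and 202 bp, range −305 to 374 bp), against 108 bp downstream for 1576 other genes (quartiles −33.2 and 231 bp). Summits were at or downstream of the start in 20 of 30 members (66.7%, 47.2 to 82.7), against 1101 other genes (69.9%, 67.5 to 72.1). Within 250 bp of the start lay 25 of the 30 (83.3%), against 68.9% of other genes. No summit of a member lay over 374 bp from its start in either direction, while those of other genes reached from −987 to 989 bp. A range widens with the number of genes, here 30 against 1576, and these differences in position were not tested.

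**Figure D3:**
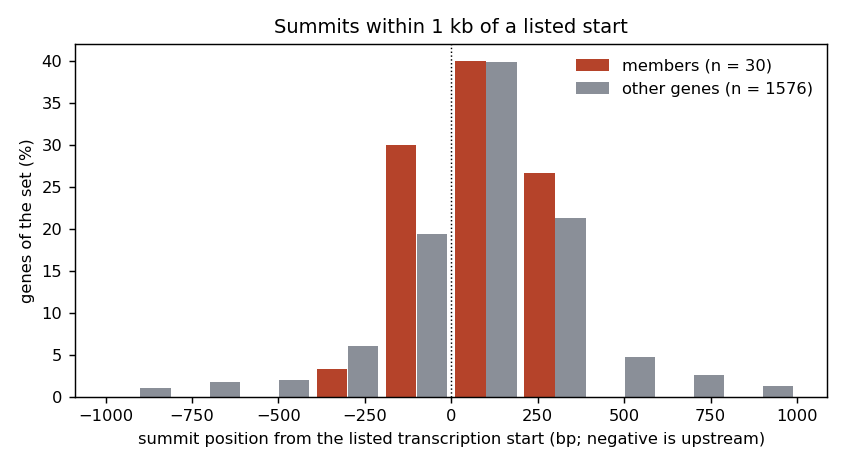
Position of the highest-scoring summit within 1 kb of a listed transcription start, in bins of 200 bp along the gene (negative is upstream), as a percentage of the 30 vesicle trafficking genes (red) and of the 1576 other genes (grey). Both distributions peak in the 200 bp after the start, and no trafficking gene lies farther than 374 bp from it.

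Some summits lay near another gene. In 8 of the 39 members (20.5%, 9.30 to 36.5) an end of another protein-coding gene, where transcription starts or ends, lay within 1 kb of the top summit. In 3 of the 39 (7.69%, 1.62 to 20.9) the summit was within 1 kb of both the member's listed start and that of another protein-coding gene. These head-to-head neighbours were Sfxn2 for Arl3, Prelid1 for Rab24 and Nsun6 for Arl5b (395 bp upstream of its start). Starts of lncRNA genes on the opposite strand lay 268 bp from the Rab23 summit (Gm32229) and 228 bp from the Sec61a2 summit (Gm13267). The mark at such places cannot be assigned to 1 of the neighbours.

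Members with a peak were longer at the median than members without one, and the same held for other genes. Gene length had a median of 35.9 kb in the 39 members with a peak and 25.3 kb in the 216 without, against 31.2 and 15.7 kb in other genes with and without a peak. The part of length in the shares was not tested. Within classes of length the shares were 2.27% of members against 5.70% of other genes under 10 kb, and 15.9% of members against 11.7% of other genes from 10 to 30 kb. They were 17.9% of members against 17.2% of other genes from 30 to 100 kb, and 26.9% of members against 16.4% of other genes over 100 kb. In each class the share of other genes lay within the members' interval. Under 10 kb the 1 member of 44 with a peak was Rab24.

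In the promoter window of the most upstream listed start, members with a summit at the start held a median of 22 CpG (range 13 to 43) and 64.7% G and C. Members without a peak held 22 CpG and 62.2% G and C. Other genes held 27 CpG with a summit at the start and 11 CpG without a peak. By class of CpG count, a setting chosen after the data were seen, a summit lay at the start of 0 of 23 members with under 10 CpG (exact upper limit 14.8%), against 1.13% of other genes. It did so in 13.6% of members against 7.58% of other genes with 10 to 19 CpG, and in 16.9% of members against 15.6% of other genes with 20 to 29. With 30 or more CpG it did so in 20% of members against 25.3% of other genes. The share of other genes lay within the members' interval in each class.

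**Figure D4:**
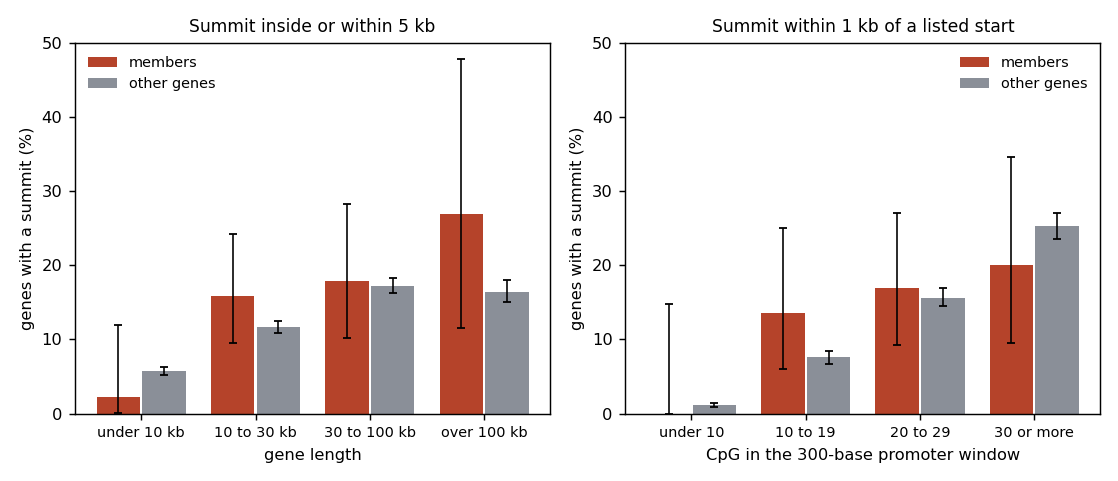
Percentage of genes with a summit, for vesicle trafficking genes (red) and other protein-coding genes (grey), by gene length (left panel, summit inside the gene or within 5 kb) and by the number of CpG in the 300-base promoter window (right panel, summit within 1 kb of a listed start), with exact 95% binomial intervals. The grey bars lie within the red intervals in all classes, from 2.27% of members against 5.70% of other genes in the shortest genes to 20% of members against 25.3% of other genes in the starts richest in CpG.

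Short motifs were counted on both strands of the same windows. The GC box GGGCGG was found in 26 of 30 members with a summit at the start (86.7%), in 67.6% of members without a peak, in 78.1% of other genes with a summit at the start and in 46.3% of all protein-coding genes with a listed start. The E box CACGTG was found in 8 of the 30 (26.7%), in 10% of members without a peak, in 12% of other genes with a summit at the start and in 7.91% of all such genes. ACGTG, which the E box contains, was found in 16 of the 30 (53.3%), in 31.8% of members without a peak, in 28.1% of other genes with a summit at the start and in 20.7% of all. TGACGT, which lies within the CRE, was found in 9 of the 30 (30%), in 17.1% of members without a peak, in 11.6% of other genes with a summit at the start and in 8.71% of all. GGAAGT was found in 12 of the 30 (40%), in 25.9% of members without a peak, in 24% of other genes with a summit at the start and in 25.1% of all. CCACG was found in 20 of the 30 (66.7%), in 44.7% of members without a peak, in 54.2% of other genes with a summit at the start and in 37.1% of all. TCACGTGA, which contains the E box, was found in 2 of the 30 (6.67%), in 4.71% of members without a peak, in 2.22% of other genes with a summit at the start and in 1.25% of all. CCAAT was found in 9 of the 30 (30%), in 41.8% of members without a peak, in 34.4% of other genes with a summit at the start and in 39.2% of all. TATAAA was found in 1 of the 30 (3.33%), in 5.88% of members without a peak, in 4.82% of other genes with a summit at the start and in 13.3% of all, so a low share was common to the first 3 sets. GCATGCGC was found in 1 of the 30 (3.33%), in 5.29% of members without a peak, in 6.15% of other genes with a summit at the start and in 3.61% of all. TGACGTCA was found in 1 of the 30 (3.33%), in 3.53% of members without a peak, in 3.17% of other genes with a summit at the start and in 2.33% of all. CCAAT followed by CCACG after 9 bases, the ER stress element, was found in 0 of the 30, in 0 of 170 members without a peak, in 0.254% of other genes with a summit at the start and in 0.16% of all. These are counts of letters in 30 windows, with no test. Motifs can share letters, so the same site can count under several of them. For example, TGACGTG in the Arf1 and Sec24d windows above matches both TGACGT and ACGTG. The shares are therefore not separate observations.

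Partners of the same machinery outside the symbol rule, in 6 lists, had a peak in 27 of 133 genes (20.3%, 13.8 to 28.1). The interval lies above the 11.4% of all protein-coding genes, and the lists were written with earlier results of these data known. The list of δ-COP, Sar1, p24 cargo receptors and KDEL receptors, which work between the ER and Golgi, had 6 of 14 (42.9%, 17.7 to 71.1). They were Sar1a (10.5, 195 bp after its start), the GTPase that starts COPII assembly, Kdelr3 (9.18, 9 bp after) and Kdelr2 (7.01, 109 bp inside one end), which return ER residents, Tmed10 (6.04, 354 bp after), Arcn1 (2.77), the δ subunit of COPI, and Tmed2 (8.42), whose summit was 160 bp from an end of Ddx55.

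Rab and Arf regulators had 10 of 30 (33.3%, 17.3 to 52.8), against 11.4% of all protein-coding genes. The highest scores were at Git2 (7.20), an Arf GTPase-activating protein, Git1 (6.12, nearer to Ankrd13b), the Arf exchange factors Cyth1 (5.11) and Cyth2 (5.07), Rabgef1 (4.54), an activator of Rab5, and Chml (4.54, nearer to Opn3), an escort of Rab proteins. Tethering complexes had 5 of 32 (15.6%, 5.28 to 32.8): Cog3 (9.18) and Cog2 (2.51) of the Golgi COG tether, Uso1 (7.89), Exoc8 (6.53) of the exocyst and Golga2 (4.26). The Uso1 summit was nearer to an end of G3bp2 (62 bp) than to one of Uso1 (122 bp). That of Exoc8 was nearer to an end of Sprtn (0 bp) than to one of Exoc8 (66 bp). The Golga2 and Dnm1 calls rest on the same summit, which was nearer to Dnm1. Clathrin, dynamin and GGA genes had 2 of 9 (22.2%, 2.81 to 60.0), Dnm1 (4.26) and Gga1 (4.23). Other SNAREs and their chaperones had 2 of 26 (7.69%, 0.946 to 25.1), Snap29 (9.95) and Napa (6.46). The remaining ESCRT and phosphoinositide genes had 2 of 22 (9.09%, 1.12 to 29.2), Chmp1a (5.63) and Pdcd6ip (2.27).

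The cell type could not be checked from this list, since 0 of 14 CD8 T cell markers, 0 of 5 B cell markers and 0 of 5 myeloid markers had a peak.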

How the data were processed

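The authors' deposited file is a list of ChIP summits, each a position of 1 bp with a score. The submitters' processing notes name build mm10 and these tools: MACS2 2.1.2, Bowtie2 2.3.5, Trimmomatic 0.39 and FastQC 0.11.8. The deposited scores are −log10 p or q values; the sources used here do not say which of these, nor the caller's settings or its control. Read counts behind a peak were not analysed here, so its depth is unknown.

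Positions were set against RefSeq genes of GRCm38.p6, the assembly of mm10, and transcription starts were taken from RefSeq promoter windows. A gene had a peak when any summit lay inside it or within 5 kb. With 1 ChIP library no test was made. The symbol rule used no peak values, but the members, lists, motifs and roles were chosen with earlier results of these data known. Every member with a peak is named, along with subunits of the same complexes, the members nearest the limit and up to 6 partners per list by score. Counting functions were tested on simulated summits. Alternatives covered distances, assignment, summits, score thresholds and chromosomes. Calculations ran in Python 3.11.15 (scipy 1.17.1, pandas 2.3.3, numpy 2.4.6; figures with matplotlib 3.10.9).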

Additional observations from a re-analysis of the deposited data

How the results depend on the processing

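Across 13 settings for counting members, the main one included, the share of vesicle trafficking genes with a peak was above that of other genes in 13, and the members' interval held the share of other genes in 10. The share was 17.6% against 12.9% with 10 kb flanks, 13.7% against 9.35% at gene ends alone and 13.7% against 9.21% when a summit counted only for the gene with the nearest end; in these 3 the interval did not hold the other genes' share. Stricter scores leave fewer peaks by construction. In the top 50% of peaks the share was 7.84% of members against 5.74% of other genes, 7.84% (4.55 to 12.4) of members with a listed start against 4.67% of other genes at starts, where the interval no longer lay above the other genes' share, and 11.3% of partner genes. In the top 10% it was 1.96% of members against 1.26% of other genes, and 3.01% of partner genes. Of 110 family values under alternatives, 100 stayed within the family's interval in the main setting. These intervals are wide (0.421 to 64.1% for Arf, 0.316 to 52.7% for Cop). Most alternatives also use largely the same summits, so staying inside says little about stability. Rab had 1.45% (0.0367 to 7.81) in both the top 50% and the top 10% of peaks, and the interval held the share of other genes each time. The 1 Rab gene in the top 10% was Rab11fip1 (9.18), which lay at the score threshold. Peaks tied at the threshold were kept, and 11.0% of all peaks reached the score of Rab11fip1. In the top 10%, Ap had 3.57%, Snx 3.33%, Vps 2.86%, and Arf, Arl, Sec and Stx 0%. Arf also had 0% when summits had to lie inside the gene. The partner alternatives and the setting without genes listed in the first 3 Mb were chosen after seeing the data. No paired analysis was possible because there is 1 ChIP library, and no replicate could be left out.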

Other observations

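Sets of genes with a shared task, chosen after their values were seen, are given as values with no explanation. Of 10 small GTPases known from the primary cilium (Arl2, Arl3, Arl6, Arl13a, Arl13b, Rab8a, Rab11a, Rab23, Rab28 and Rab34), 4 had a peak, against 11.4% of all protein-coding genes: Arl13b (4.54), Rab23 (4.22), Arl6 (3.52) and Arl3 (2.12). The set was put together with these peaks known, so its share says nothing about cilium GTPases. All 4 scores were below the median of all peaks, 5.04. Of 7 genes of lytic granule release (Rab27a, Stx11, Stxbp2, Unc13d, Vamp7, Vamp8 and Snap23), 1 had a peak, which was Stx11 (2.51); Vamp7 could not be scored.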
